A study of Mus musculus with 12 samples.

Results

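The comparison of DSS colitis with the untreated colon rested on 6 of the 12 RNA-seq libraries of the series, the 3 of the DSS group and the 3 of the Con group, and covered all genes. All were colon RNA of male C57BL/6 mice supplied at 6 weeks of age and then adapted to the facility. The DSS group drank dextran sulfate sodium, a sulfated polysaccharide that injures the colon epithelium, at 3% (w/v) for 5 days. The sample labels call the Con group untreated, whereas the methods give it the vehicle by gavage, as they do for the DSS group. The labels name Trizol for the RNA and the methods an RNeasy kit. The other 6 libraries came from mice given DSS with ursolic acid. They entered only the estimate of the spread between replicates, the filter for low counts and the scaling of library sizes. No label says which length of the colon was taken or whether muscle was stripped from it.

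The colon is lined by crypts in which stem cells at the base give rise to absorptive colonocytes, which take up water, salt and short-chain fatty acids, and to goblet, tuft and enteroendocrine cells. Colonocytes draw most of their energy from the oxidation of butyrate made by the microbiota. Fibroblasts beneath the crypts supply signals that hold stem cells at the base and let cells mature towards the surface. In colon tissue as a whole, fewer cells of a type and less RNA per cell cannot be told apart.

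Each library held between 17647392 and 19498383 counts. Levels are given as CPM, counts relative to a library size scaled by TMM factors, in the order of replicates 1, 2 and 3. Defining markers of the colon epithelium were present in all 6 libraries, with 1760, 2200 and 1700 CPM in Con and 955, 774 and 1240 CPM in DSS for the epithelial adhesion gene Epcam and 336, 706 and 531 CPM in Con and 382, 330 and 603 CPM in DSS for Cdh17, an intestinal cadherin. Replicates within a group were not alike. Hox genes mark the length of the gut. A position score was the mean log2 CPM of 5 rectal-side Hox genes minus that of 6 caecal-side ones. It was 5.53, -3.03 and -1.83 in Con and 3.10, 1.35 and 0.37 in DSS. Con 1 stood at the rectal end, and all DSS libraries lay between it and Con 3, to the rectal side of Con 2 and Con 3. In the edgeR test below, 0 of the 5 rectal-side genes differed with all libraries, and 3 were higher in DSS without Con 1. Of the caecal-side genes 1, Hoxb6, was lower with all libraries but not without Con 2 or DSS 3. The summed level of 18 neutrophil genes was 7.71, 5.38 and 6.47 CPM in Con. In DSS it was 759, 21100 and 975 CPM, which set DSS 2 apart. A list of 13 genes of pancreatic acinar cells, a cell type outside the colon, summed to 571, 171 and 162 CPM in Con. In DSS it summed to 98.7, 34.4 and 19600 CPM, which set DSS 3 apart. The pancreatic enzyme genes Cela2a, Cpb1, Ctrb1, Ctrl, Pnlip and Pnliprp2 had at most 1.83 CPM in any Con library. Other members of the list therefore made up most of the Con sums.

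**Figure D1:**
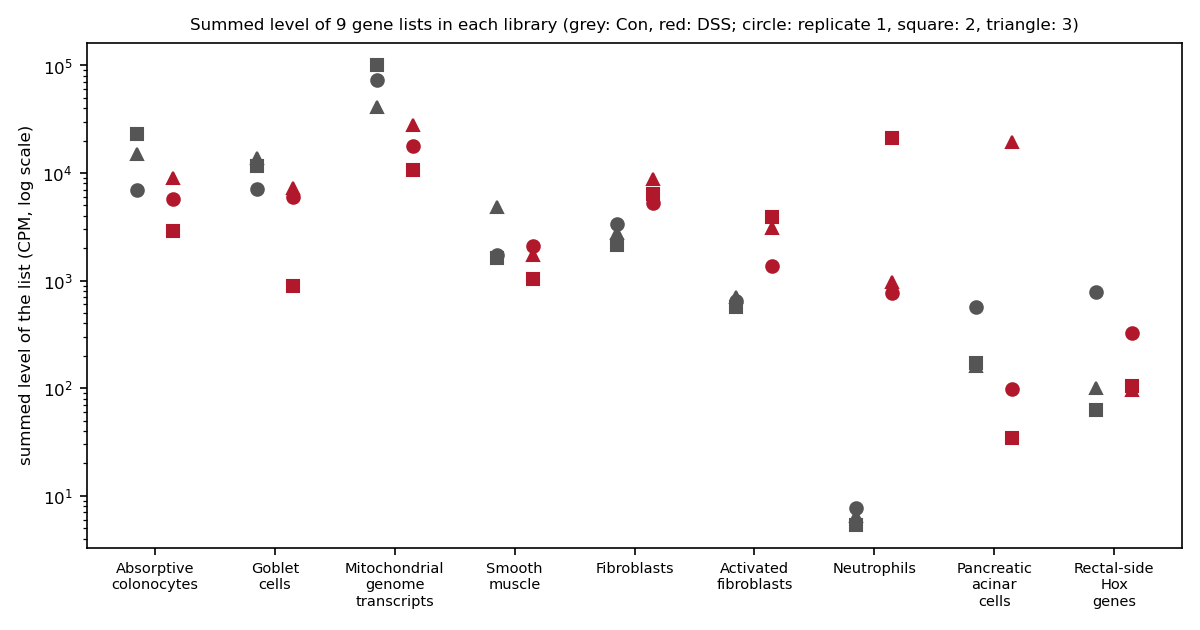
Summed level in CPM, on a log scale, of 9 gene lists in each of the 6 libraries, with Con in grey and DSS in red and a marker shape for each replicate. Neutrophil genes were highest in DSS 2 at 21100 CPM and pancreatic acinar genes in DSS 3 at 19600 CPM, while the mitochondrial transcripts of all DSS libraries lay below those of all Con libraries.

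edgeR's quasi-likelihood test called 4688 of 17658 tested genes (26.5%) at an adjusted p under 0.05. Of these, 2459 (13.9% of the tested genes) were higher and 2229 (12.6%) lower in DSS, and 3191 differed at least 2-fold. To find calls that do not rest on 1 mouse, the fit was repeated without each of the 6 libraries. A call made in all 6 refits is named kept below, and 2275 genes (12.9% of those tested), 1320 higher (7.48%) and 955 lower (5.41%), were kept. Without DSS 2 1518 calls were lost and without DSS 3 975, and 2771 calls held without either one. The largest losses came without Con 2 (1814) and DSS 1 (1715). Only 14 calls were lost without DSS 2 and no other library, and 6 without DSS 3 and no other.

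All 2275 kept genes were also called with the position score as a covariate, and the groups did not overlap in 2274 of them (of all tested genes 41.3% had groups that did not overlap, 21.2% with DSS above and 20.1% with DSS below Con). With only the 6 Con and DSS libraries in the fit, 2002 genes were called, among them 1689 of the kept ones. The median log2 fold change of all tested genes was -0.03. Gene lists are described by how many of their tested members were called in each direction, beside the shares of 13.9% and 12.6% over all genes.

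**Figure D2:**
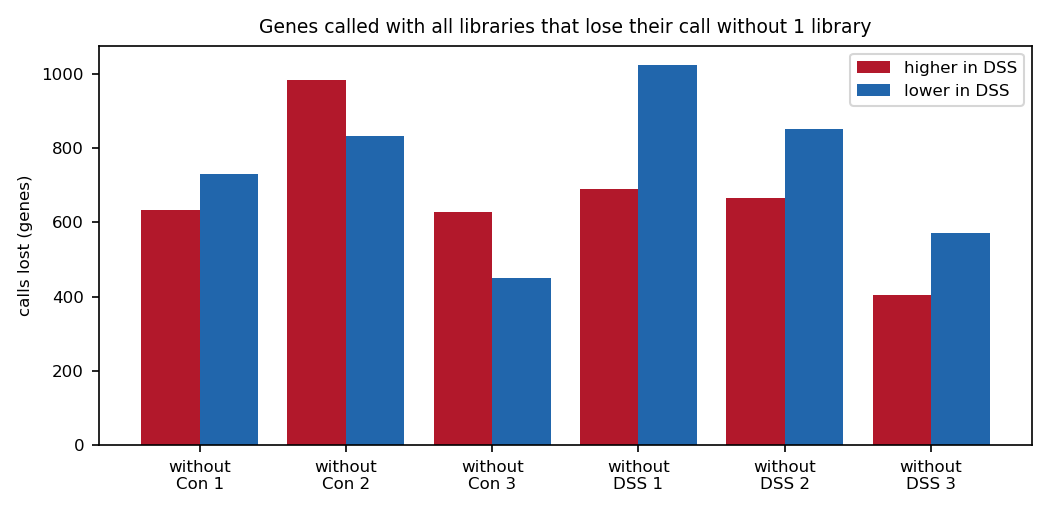
Number of genes called with all libraries that lose their call when 1 library is left out, with genes higher in DSS in red and lower in DSS in blue. Losses ran from 975 genes without DSS 3 to 1814 without Con 2.

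**Figure D3:**
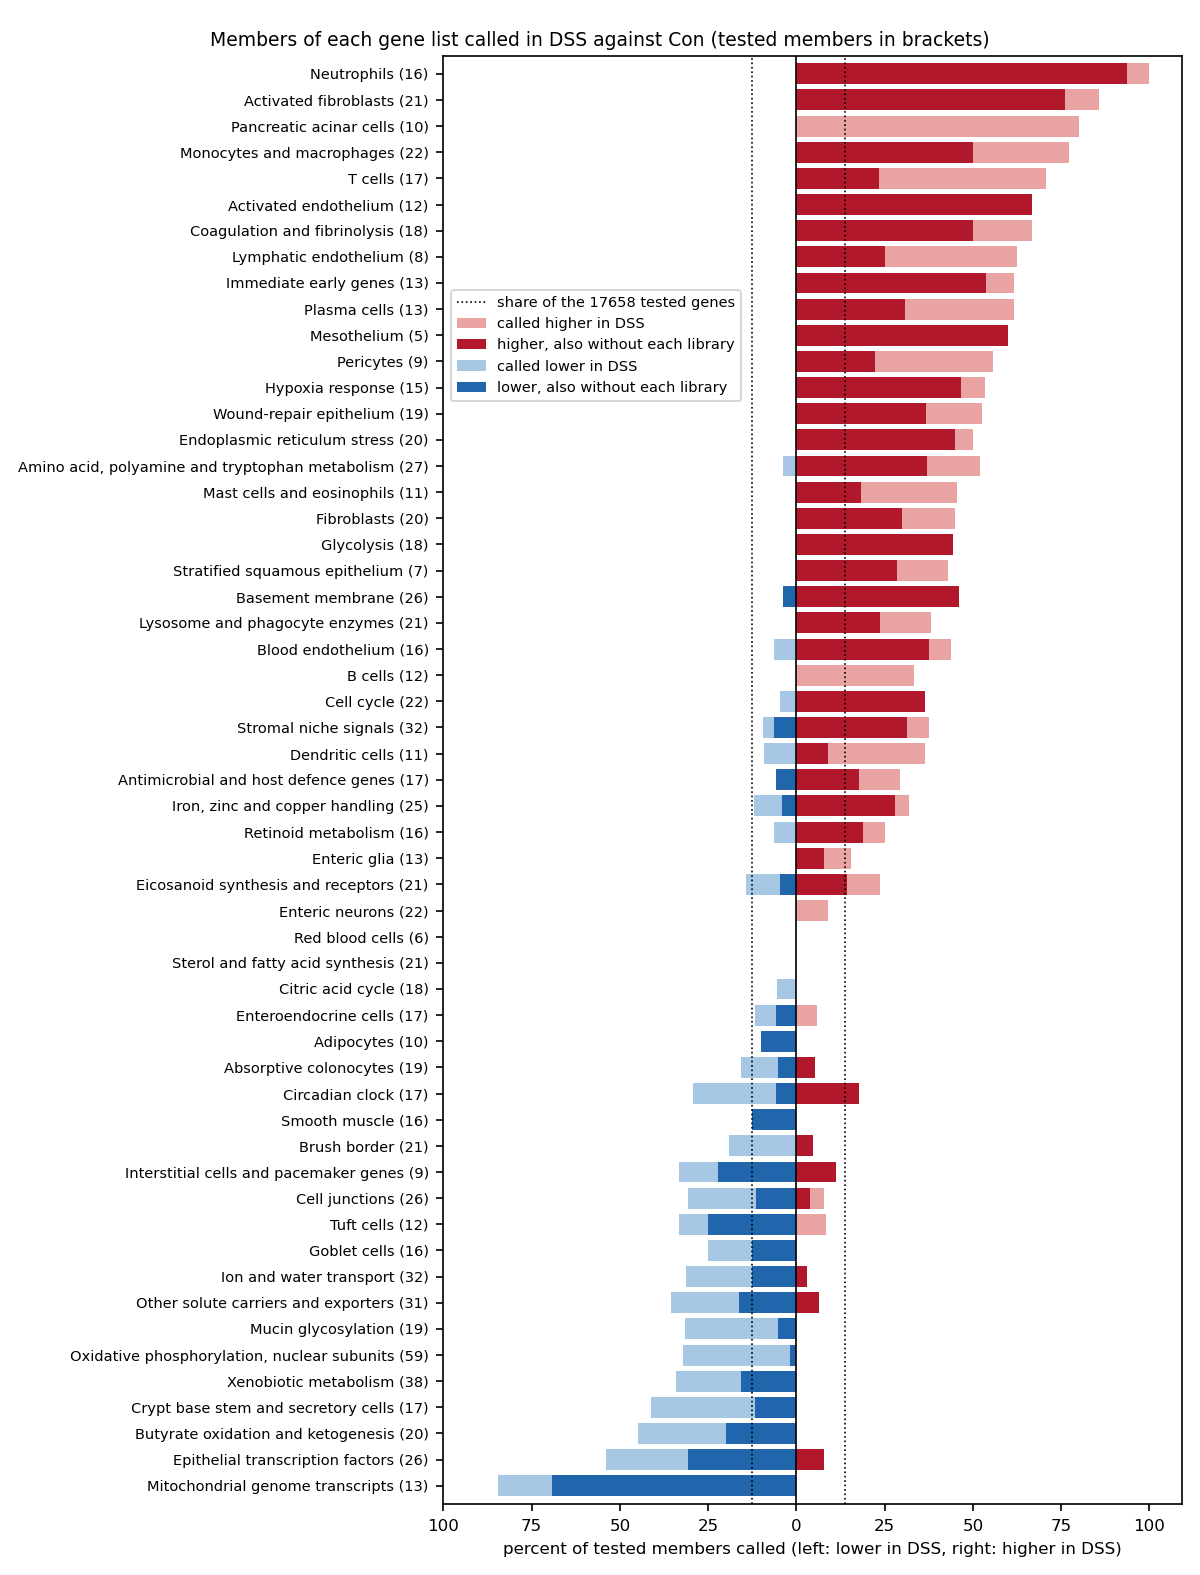
Percent of the tested members of each gene list called lower (left) or higher (right) in DSS, with the number tested in brackets. Dark bars are calls kept without each of the 6 libraries in turn, and dotted lines mark the shares over all tested genes, 12.6% lower and 13.9% higher.

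The 8 protein-coding genes with the most negative fold changes among kept calls, with groups that did not overlap and a mean log2 CPM of 1 or more, were Pdzd7, Sult1a1, Dio1, Edn2, Sh2d6, Myo3a, Nxpe2 and Gsdmc3. Sult1a1 (ENSMUSG00000030711, chr7:126672865-126676432, GRCm38), a sulfotransferase that conjugates phenols, stood at 552, 538 and 405 CPM in Con and 47.9, 10.1 and 66.8 CPM in DSS, a log2 fold change of -3.58 (SE 0.60, edgeR adjusted p = 0.00371). Dio1 (ENSMUSG00000034785, chr4:107291465-107307169, GRCm38), a deiodinase that converts thyroid hormone, stood at 62.3, 56.9 and 47.3 CPM in Con and 3.66, 1.50 and 4.49 CPM in DSS, a log2 fold change of -4.11 (SE 0.76, edgeR adjusted p = 0.00539). In both genes every DSS library lay below every Con library. Edn2 (ENSMUSG00000028635, chr4:120161206-120167360, GRCm38), which encodes the vasoactive peptide endothelin 2, had 12.8, 13.2 and 8.07 CPM in Con and 0.818, 0.902 and 0.634 CPM in DSS, a log2 fold change of -3.84 (SE 0.56, edgeR adjusted p = 0.00238). Sh2d6 (ENSMUSG00000052631, chr6:72513641-72521707, GRCm38), a tuft cell gene, had 3.93, 8.54 and 7.22 CPM in Con and 0.385, 0.852 and 0.423 CPM in DSS, a log2 fold change of -3.55 (SE 0.48, edgeR adjusted p = 0.0019). Pdzd7 and Myo3a encode proteins known from the actin-based stereocilia of hair cells. Pdzd7 (ENSMUSG00000074818, chr19:45026906-45045717, GRCm38) stood at 30.3, 36.3 and 29.7 CPM in Con and 1.20, 1.60 and 4.38 CPM in DSS, a log2 fold change of -3.74 (SE 0.48, edgeR adjusted p = 0.00136). Myo3a (ENSMUSG00000025716, chr2:22227503-22618252, GRCm38) stood at 11.5, 8.87 and 6.74 CPM in Con and 0.289, 0.0501 and 1.37 CPM in DSS, a log2 fold change of -3.98 (SE 0.78, edgeR adjusted p = 0.00587). Nxpe2 (ENSMUSG00000032028, chr9:48318006-48353454, GRCm38) fell with a log2 fold change of -3.66 (SE 0.71, edgeR adjusted p = 0.00617), and the gasdermin Gsdmc3 (ENSMUSG00000055827, chr15:63857724-63878558, GRCm38), of a family of pore-forming proteins, with a log2 fold change of -4.32 (SE 0.97, edgeR adjusted p = 0.011). Log2 fold changes became -4.51 (Pdzd7), -5.68 (Myo3a) and -4.31 (Nxpe2) without DSS 3, -2.83 (Gsdmc3) without Con 1 and -5.34 (Gsdmc3) without DSS 1. Other settings that ended calls were the fit of Con and DSS alone (Gsdmc3). Gsdmc3 had 10% or more of the exon sequence in common with other genes, so its count is uncertain. Reads of Sult1a1 and Pdzd7 may be mixed with those of a gene with overlapping exons.

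Among goblet cells, which fill with mucus, the secretory regulators Atoh1 and Ern2 fell in calls that were kept. In the goblet cell list 4 of 16 members fell and 0 rose, with a median log2 fold change of -1.32. Atoh1, the transcription factor that commits crypt cells to the secretory fate, stood at 70.7, 91.0 and 90.3 CPM in Con and 24.7, 7.66 and 29.3 CPM in DSS, a log2 fold change of -2.03 (SE 0.39, edgeR adjusted p = 0.00536). Ern2, an endoplasmic reticulum stress sensor of mucus-producing cells, stood at 88.5, 88.7 and 124 CPM in Con and 26.5, 11.3 and 54.0 CPM in DSS, a log2 fold change of -1.72 (SE 0.42, edgeR adjusted p = 0.015). Every DSS library was below every Con library in both. Muc2, the gel-forming mucin of the colon, spread widely in Con, with 741, 6630 and 5870 CPM in Con and 631, 147 and 1430 CPM in DSS and a log2 fold change of -2.58 (SE 0.83, edgeR adjusted p = 0.0412). Con 1 lay below DSS 3, so the groups overlapped. Clca1, a secreted goblet cell protease, differed by -0.77 (SE 0.97) with an edgeR adjusted p of 0.581. The edgeR adjusted p rose over 0.05 for Muc2 without Con 2, Con 3, DSS 1 or DSS 2 (up to 0.114). With 1 library left out, log2 fold changes were -2.42 (Ern2) and -3.50 (Muc2) without DSS 3. Calls went missing with the fit of Con and DSS alone (Ern2 and Muc2), the position score as covariate (Muc2) and no filter on low counts (Muc2). For the goblet cells list, lower calls numbered 2 without Con 2, Con 3 or DSS 1, 7 without DSS 3 and 1 with Con and DSS alone.

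Tuft cells are chemosensory cells whose fate depends on the transcription factor Pou2f3. Of 12 members tested, 4 fell, 1 rose and 3 of the lower calls were kept, with a median of -0.50. Trpm5, the cation channel that carries their taste-like signal, stood at 4.29, 18.5 and 13.2 CPM in Con and 1.40, 1.70 and 1.21 CPM in DSS, a log2 fold change of -3.05 (SE 0.50, edgeR adjusted p = 0.00322). Rgs13, a regulator of G protein signalling, stood at 5.38, 10.8 and 9.89 CPM in Con and 1.59, 1.30 and 0.158 CPM in DSS, a log2 fold change of -3.08 (SE 0.74, edgeR adjusted p = 0.013). Neither gene had groups that overlapped. Pou2f3 itself had 0.724, 1.94 and 1.76 CPM in Con and 0.625, 0.0501 and 0.264 CPM in DSS, a log2 fold change of -2.20 (SE 0.69, edgeR adjusted p = 0.0362). Dclk1, a widely used tuft cell marker that stromal and neural cells also express, differed by 0.24 (SE 0.34), and the edgeR adjusted p was 0.631. The member that rose was Alox5, which neutrophils also express and which was not kept when each library was left out in turn. Calls by edgeR's adjusted p were lost for Pou2f3 without Con 2, Con 3, DSS 2 or DSS 3 (up to 0.0985). Fold changes on the log2 scale shifted to -3.19 (Pou2f3) without DSS 1. Under other settings, calls ended with the fit of Con and DSS alone (Pou2f3) and the position score as covariate (Pou2f3). Against 1, the higher calls of the tuft cells list were 0 without Con 1, Con 2, Con 3 or DSS 2 and 0 with Con and DSS alone. Reads of Trpm5 may be mixed with those of a gene with overlapping exons.

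In the enteroendocrine list 2 of 17 members fell (11.8%, against 12.6% of all tested genes) and 1 rose (5.88%, against 13.9%). The hormone gene Gcg and the granule gene Chga were not called. Chga, the granule protein chromogranin A, stood at 81.7, 66.8 and 66.7 CPM in Con and 75.6, 43.6 and 47.7 CPM in DSS (edgeR adjusted p = 0.319). Gcg, which encodes the glucagon-like peptides, differed by -0.14 (SE 0.44), with an adjusted p of 0.839 from edgeR. Neurog3, the factor that starts the endocrine fate, rose with a log2 fold change of 2.14 (SE 0.58, edgeR adjusted p = 0.0215). Pax6, a later factor of this lineage, fell with a log2 fold change of -1.60 (SE 0.53, edgeR adjusted p = 0.0458). In edgeR, the adjusted p went past 0.05 for Neurog3 without Con 1, Con 2 or DSS 1 (up to 0.0750) and Pax6 without Con 1, DSS 1, DSS 2 or DSS 3 (up to 0.228). With a library fewer, log2 fold changes were -0.61 (Pax6) without Con 1. Among the other fits, no call remained with the fit of Con and DSS alone (Neurog3 and Pax6), limma-voom (Pax6), library sizes without factors (Pax6) and no filter on low counts (Pax6). In the enteroendocrine cells list the lower calls came to 1 without Con 1, DSS 1, DSS 2 or DSS 3 and 0 with Con and DSS alone. Higher calls of the enteroendocrine cells list numbered 0 without Con 2 or DSS 1 and 0 with Con and DSS alone. Reads of Neurog3 may be mixed with those of a gene with overlapping exons.

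At the crypt base, 7 of 17 members fell and 0 rose, with a median of -0.59. Lgr5, the receptor that marks stem cells, stood at 16.4, 10.5 and 7.70 CPM in Con and 1.25, 0.501 and 4.60 CPM in DSS, a log2 fold change of -2.45 (SE 0.62, edgeR adjusted p = 0.0161). Axin2 and Ephb3 are targets of Wnt signalling, and both were kept. Axin2 stood at 44.7, 48.9 and 39.8 CPM in Con and 19.7, 16.7 and 27.2 CPM in DSS, a log2 fold change of -1.07 (SE 0.22, edgeR adjusted p = 0.00685). Ephb3, a receptor that sorts cells along the crypt, stood at 80.3, 44.9 and 54.4 CPM in Con and 21.2, 23.6 and 28.7 CPM in DSS, a log2 fold change of -1.29 (SE 0.23, edgeR adjusted p = 0.00417). The other members that fell were the Wnt receptor antagonists Rnf43 and Znrf3, Tnfrsf19 and Kit. None of them was kept when each library was left out in turn. Ascl2, Smoc2, Sox9 and Ephb2 of the same list were not called. An edgeR adjusted p over 0.05 was found for Lgr5 without DSS 1 (up to 0.0569) and Kit without Con 2, Con 3 or DSS 1 (up to 0.0746). On the log2 scale the fold changes moved to -3.71 (Lgr5) without DSS 3. Further calls went with the fit of Con and DSS alone (Lgr5 and Kit). Of the crypt base stem and secretory cells list, lower calls amounted to 4 without Con 3 or DSS 2, 3 without DSS 1 and 2 with Con and DSS alone. Reads of Axin2 may be mixed with those of a gene with overlapping exons.

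Few genes of mature colonocytes passed the test. Of 19 members, 3 fell (15.8%, against 12.6% of all tested genes) and 1 rose (5.26%, against 13.9%), with a median of -1.53. Aqp8, the water channel of surface colonocytes, had 340, 965 and 723 CPM in Con and 101, 8.32 and 201 CPM in DSS, groups that did not overlap and a log2 fold change of -2.71 (SE 1.05, edgeR adjusted p = 0.0797). Car1, a carbonic anhydrase, had 769, 3800 and 1790 CPM in Con and 546, 202 and 1640 CPM in DSS and Con 1 lay below DSS 3. Slc26a3, the chloride and bicarbonate exchanger, had 523, 1060 and 790 CPM in Con and 155, 32.0 and 591 CPM in DSS and an edgeR adjusted p of 0.143. The member that rose was Clca4b, of a family of secreted proteins, at 5.12, 3.66 and 3.80 CPM in Con and 488, 232 and 274 CPM in DSS with a log2 fold change of 6.30 (SE 1.09, edgeR adjusted p = 0.0041). The lower calls of the absorptive colonocytes list numbered 1 without Con 2, Con 3, DSS 1 or DSS 2, 8 without DSS 3 and 1 with Con and DSS alone. Clca4b carried 10% or more of the exon sequence in common with other genes, so its count is uncertain.

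**Figure D4:**
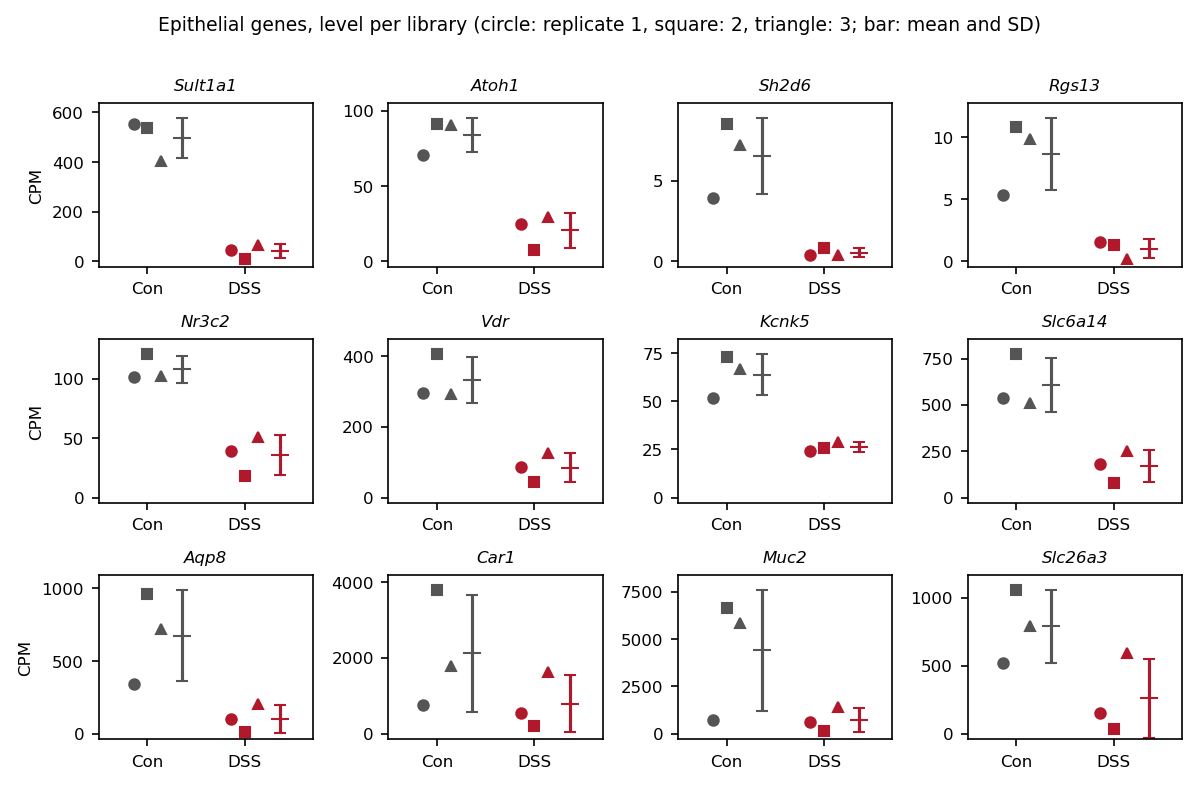
Level in CPM of 12 epithelial genes in each library, with Con in grey, DSS in red, a marker shape for each replicate and bars for the mean and SD (n = 3). Sult1a1, Atoh1, Sh2d6, Rgs13, Nr3c2, Vdr, Kcnk5 and Slc6a14 had DSS libraries that all lay below Con and were called, Aqp8 had groups apart without a call, and Car1, Muc2 and Slc26a3 had groups that overlapped.

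Transcription factors of the epithelium had the second highest share of lower calls among the lists, after the mitochondrial transcripts. Of 26 members, 14 fell, 8 of them kept, and 2 rose, with a median log2 fold change of -0.92. Among nuclear receptors, Vdr, the vitamin D receptor, stood at 297, 407 and 292 CPM in Con and 85.0, 42.6 and 125 CPM in DSS, a log2 fold change of -1.98 (SE 0.39, edgeR adjusted p = 0.00575). Nr3c2, the aldosterone receptor, stood at 101, 121 and 102 CPM in Con and 38.8, 18.1 and 51.2 CPM in DSS, a log2 fold change of -1.58 (SE 0.31, edgeR adjusted p = 0.00608). Both were lower in every DSS library than in any Con library. Nr5a2, which drives local glucocorticoid synthesis in the gut, fell with a log2 fold change of -1.57 (SE 0.34, edgeR adjusted p = 0.00831). Hnf4a had 481, 957 and 717 CPM in Con and 386, 226 and 558 CPM in DSS and did not pass (edgeR adjusted p = 0.0667), and Cdx2, at 47.3, 455 and 274 CPM in Con and 56.3, 57.9 and 160 CPM in DSS, overlapped between the groups. The members that rose, Maf and Prdm1, are also expressed by macrophages and plasma cells. Other settings that ended calls were the fit of Con and DSS alone (Nr5a2). For the epithelial transcription factors list, lower calls numbered 9 without DSS 1 and 6 with Con and DSS alone. Reads of Nr3c2 may be mixed with those of a gene with overlapping exons.

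Among genes of ion and water transport most calls were lower in DSS. Of 32 members, 10 fell and 1 rose, with a median of -1.0. Kcnk5, a potassium channel, stood at 52.0, 73.2 and 66.7 CPM in Con and 24.0, 25.8 and 28.8 CPM in DSS, a log2 fold change of -1.29 (SE 0.20, edgeR adjusted p = 0.003). Slc26a2, a sulfate transporter, stood at 575, 896 and 663 CPM in Con and 205, 110 and 390 CPM in DSS, a log2 fold change of -1.60 (SE 0.37, edgeR adjusted p = 0.0113). In each, the groups were apart. Car2, the cytosolic carbonic anhydrase, stood at 1250, 1120 and 764 CPM in Con and 355, 174 and 480 CPM in DSS, a log2 fold change of -1.63 (SE 0.34, edgeR adjusted p = 0.00746). Ano1, a calcium-activated chloride channel that pacemaker cells of the gut wall also carry, stood at 136, 123 and 138 CPM in Con and 59.3, 51.1 and 64.9 CPM in DSS, a log2 fold change of -1.18 (SE 0.23, edgeR adjusted p = 0.00588). Trpm6, the magnesium channel, fell with a log2 fold change of -1.59 (SE 0.44, edgeR adjusted p = 0.0249). Slc9a2, a sodium and proton exchanger, fell with a log2 fold change of -2.20 (SE 0.56, edgeR adjusted p = 0.0169). Slc9a3, the other apical exchanger, had 34.9, 566 and 444 CPM in Con and 29.0, 14.4 and 479 CPM in DSS, with DSS 3 at the level of Con 2 and 3. Aqp3 was the member that rose. It stood at 0, 0.111 and 0.267 CPM in Con and 3.80, 3.36 and 0.581 CPM in DSS with a log2 fold change of 4.29 (SE 0.92, edgeR adjusted p = 0.00808). The edgeR adjusted p rose over 0.05 for Trpm6 without Con 2, DSS 2 or DSS 3 (up to 0.0756) and Slc9a2 without Con 2 or DSS 1 (up to 0.0581). With 1 library left out, log2 fold changes were -2.85 (Slc9a2) without DSS 3. Aqp3 had 2 Con counts without Con 3, a count ratio of 49.1 (95% exact interval 13.4 to 409). Calls went missing with the fit of Con and DSS alone (Slc26a2, Car2, Trpm6 and Slc9a2) and no filter on low counts (Trpm6). Against 10, the lower calls of the ion and water transport list were 5 without Con 2, 6 without DSS 1 or DSS 2 and 2 with Con and DSS alone. In the ion and water transport list the higher calls came to 2 without DSS 2.

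The solute carriers and exporters held 11 lower and 2 higher calls among 31 members, with a median of -0.86. Slc6a14, an importer of neutral and basic amino acids, stood at 537, 777 and 512 CPM in Con and 182, 80.6 and 250 CPM in DSS, a log2 fold change of -1.83 (SE 0.41, edgeR adjusted p = 0.00959). Abcb1a, the drug efflux pump P-glycoprotein, stood at 389, 879 and 612 CPM in Con and 90.1, 53.6 and 196 CPM in DSS, a log2 fold change of -2.47 (SE 0.54, edgeR adjusted p = 0.00909). Slc17a4, an organic anion transporter of the gut, stood at 31.3, 50.7 and 39.9 CPM in Con and 3.70, 10.2 and 7.34 CPM in DSS, a log2 fold change of -2.52 (SE 0.57, edgeR adjusted p = 0.0109). All had groups that did not overlap. The phosphate transporters Slc20a1 and Slc34a2 fell with log2 fold changes of -1.74 (SE 0.42) and -3.58 (SE 1.03). Slc5a8, which takes up butyrate with sodium, had 359, 360 and 279 CPM in Con and 66.1, 8.62 and 164 CPM in DSS, no overlap and an edgeR adjusted p of 0.0816. The butyrate carrier Slc16a1 fell and was kept. Abca1, which exports cholesterol and is abundant in macrophages, rose with a log2 fold change of 2.52 (SE 0.44, edgeR adjusted p = 0.00408), and Slc28a2, a purine nucleoside carrier, with a log2 fold change of 3.27 (SE 0.76, edgeR adjusted p = 0.0118). Calls by edgeR's adjusted p were lost for Slc34a2 without Con 2 or DSS 1 (up to 0.0850). Fold changes on the log2 scale shifted to -3.13 (Abcb1a) without DSS 3, -0.90 (Slc20a1) without Con 1 and 1.86 (Abca1) and 1.71 (Slc28a2) without DSS 2. Under other settings, calls ended with the fit of Con and DSS alone (Slc20a1, Slc34a2 and Slc28a2), limma-voom (Slc28a2) and no filter on low counts (Slc34a2). Lower calls of the other solute carriers and exporters list numbered 6 without Con 2 or DSS 1, 7 without DSS 2 and 3 with Con and DSS alone. Of the other solute carriers and exporters list, higher calls amounted to 1 with Con and DSS alone. Abcb1a and Slc28a2 had 10% or more of the exon sequence in common with other genes, so their counts are uncertain. Reads of Slc20a1 may be mixed with those of a gene with overlapping exons.

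Of 26 genes of cell junctions, 8 fell and 2 rose, and claudins, the strands of tight junctions, were called in both directions. Marveld2, which seals the corners where 3 cells meet, stood at 47.1, 54.2 and 46.5 CPM in Con and 21.2, 21.2 and 29.5 CPM in DSS, a log2 fold change of -1.04 (SE 0.16, edgeR adjusted p = 0.0025). Ocln, the tight junction protein occludin, stood at 107, 149 and 120 CPM in Con and 58.9, 42.8 and 80.6 CPM in DSS, a log2 fold change of -1.05 (SE 0.24, edgeR adjusted p = 0.011). Cldn23 had 33.8, 81.3 and 64.4 CPM in Con and 18.8, 14.1 and 22.0 CPM in DSS, a log2 fold change of -1.71 (SE 0.39, edgeR adjusted p = 0.011). All 3 were kept. Cldn1 had 3.36, 0.555 and 1.12 CPM in Con and 35.6, 8.62 and 9.14 CPM in DSS and rose with a log2 fold change of 3.40 (SE 0.80, edgeR adjusted p = 0.0126), while Cldn2, a pore-forming claudin, had 169, 131 and 148 CPM in Con and 153, 64.8 and 256 CPM in DSS. Cdh1, the adherens junction cadherin, did not pass, with a log2 fold change of -0.66 (SE 0.24, edgeR adjusted p = 0.0578). With a library fewer, log2 fold changes were 4.39 (Cldn1) without Con 1 and 2.38 (Cldn1) without DSS 1. Among the other fits, no call remained with the fit of Con and DSS alone (Ocln and Cldn1). The lower calls of the cell junctions list numbered 3 without Con 2, 4 without DSS 1 or DSS 2 and 2 with Con and DSS alone. For the cell junctions list, higher calls numbered 1 without Con 1, Con 3 or DSS 2 and 0 with Con and DSS alone.

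The sugar chains of mucins are built by glycosyltransferases, of which 6 of 19 fell and 0 rose (median -0.85). St6galnac2, a sialyltransferase, stood at 79.7, 62.2 and 58.1 CPM in Con and 14.1, 14.9 and 22.7 CPM in DSS, a log2 fold change of -1.95 (SE 0.24, edgeR adjusted p = 0.00133), and was the 1 kept. B3gnt6, which makes the core 3 structure, had 1.14, 100 and 94.6 CPM in Con and 1.35, 0.852 and 9.67 CPM in DSS, a log2 fold change of -4.05 (SE 1.27, edgeR adjusted p = 0.0385), with Con 1 at the level of the DSS libraries. With the position score as a covariate the lower calls of the list numbered 3. Gcnt3 had 57.7, 283 and 229 CPM in Con and 36.3, 18.5 and 99.7 CPM in DSS, a log2 fold change of -1.88 (SE 0.63, edgeR adjusted p = 0.0492). Pigr, the receptor that carries immunoglobulin A into the lumen, stood at 3960, 4450 and 3680 CPM in Con and 1180, 763 and 1810 CPM in DSS, a log2 fold change of -1.69 (SE 0.37, edgeR adjusted p = 0.00925). It was the 1 of 17 antimicrobial and host defence genes that fell, while 5 rose, among them Lcn2, which withholds iron from bacteria, with a log2 fold change of 9.67 (SE 1.80, edgeR adjusted p = 0.00544). Of 21 brush border genes, 4 fell, none of them kept, and Mep1a, a membrane metalloprotease, had 113, 559 and 343 CPM in Con and 21, 8.52 and 99.8 CPM in DSS with a log2 fold change of -2.97 (SE 0.92, edgeR adjusted p = 0.0369). The brush border member that rose was Ggt1, a gamma-glutamyltransferase, with a log2 fold change of 5.97 (SE 1.29, edgeR adjusted p = 0.00938). An edgeR adjusted p over 0.05 was found for B3gnt6 without Con 2, Con 3, DSS 1 or DSS 2 (up to 0.106), Gcnt3 without Con 2, Con 3, DSS 1 or DSS 2 (up to 0.147) and Mep1a without Con 2, Con 3, DSS 1 or DSS 2 (up to 0.108). On the log2 scale the fold changes moved to -5.88 (B3gnt6), -2.79 (Gcnt3) and -4.52 (Mep1a) without DSS 3 and 6.84 (Lcn2) and 3.37 (Ggt1) without DSS 2. Further calls went with the fit of Con and DSS alone (B3gnt6, Gcnt3 and Mep1a), limma-voom (B3gnt6 and Ggt1), the position score as covariate (B3gnt6), library sizes without factors (Gcnt3) and no filter on low counts (B3gnt6, Gcnt3 and Mep1a). Against 6, the lower calls of the mucin glycosylation list were 1 without Con 2, Con 3 or DSS 1, 2 without DSS 2 and 1 with Con and DSS alone. In the antimicrobial and host defence genes list the higher calls came to 3 without Con 2 or Con 3. Lower calls of the brush border list numbered 7 without Con 1, 0 without Con 2 or DSS 1, 1 without Con 3 and 0 with Con and DSS alone.

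Genes of xenobiotic metabolism held 13 lower and 0 higher calls among 38 members and a median of -1.17. The kept members included the sulfotransferases Sult1a1, Sult1c2 and Sult1d1. Sult1c2 stood at 44.2, 42.7 and 40.6 CPM in Con and 7.12, 0.601 and 8.77 CPM in DSS, a log2 fold change of -2.95 (SE 0.68, edgeR adjusted p = 0.0117). Sult1d1 stood at 231, 526 and 357 CPM in Con and 50.8, 61.2 and 107 CPM in DSS, a log2 fold change of -2.35 (SE 0.42, edgeR adjusted p = 0.00429). Cyp2s1, a cytochrome P450 of epithelial surfaces, stood at 89.3, 178 and 119 CPM in Con and 24.9, 12.8 and 31.9 CPM in DSS, a log2 fold change of -2.47 (SE 0.40, edgeR adjusted p = 0.00322). The groups of these genes were apart. Ugt2b34, a glucuronosyltransferase, stood at 392, 647 and 526 CPM in Con and 132, 83.5 and 206 CPM in DSS, a log2 fold change of -1.89 (SE 0.33, edgeR adjusted p = 0.00395). Cyp2c55 had 307, 2780 and 1460 CPM in Con and 39.6, 14.9 and 367 CPM in DSS, a log2 fold change of -3.43 (SE 1.14, edgeR adjusted p = 0.0475). Carboxylesterase Ces2a fell with a log2 fold change of -2.46 (SE 0.69, edgeR adjusted p = 0.0263). Cyp1a1, the target gene of the aryl hydrocarbon receptor, differed by 1.32 (SE 1.27), and edgeR gave an adjusted p of 0.459. Without 1 library, edgeR's adjusted p passed 0.05 for Cyp2c55 without Con 2, Con 3, DSS 1 or DSS 2 (up to 0.136) and Ces2a without Con 2, DSS 1 or DSS 2 (up to 0.0858). Omitting a single library gave log2 fold changes of -2.65 (Cyp2c55) without Con 2 and -5.80 (Cyp2c55) and -3.37 (Ces2a) without DSS 3. Calls were also lost with the fit of Con and DSS alone (Sult1c2, Cyp2c55 and Ces2a), library sizes without factors (Cyp2c55) and no filter on low counts (Cyp2c55 and Ces2a). Of the xenobiotic metabolism list, lower calls amounted to 7 without Con 2 and 5 with Con and DSS alone. Ces2a showed 10% or more of the exon sequence in common with other genes, so its count is uncertain. Reads of Cyp2s1 and Cyp2c55 may be mixed with those of a gene with overlapping exons.

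Genes of butyrate oxidation and ketone body synthesis held 9 lower and 0 higher calls among 20 members, with a median of -0.77. Acadm, the medium-chain acyl-CoA dehydrogenase, stood at 174, 198 and 153 CPM in Con and 72.2, 58.6 and 94.8 CPM in DSS, a log2 fold change of -1.22 (SE 0.23, edgeR adjusted p = 0.00536). Hadh, a dehydrogenase of the same spiral, stood at 270, 380 and 273 CPM in Con and 134, 96.5 and 175 CPM in DSS, a log2 fold change of -1.18 (SE 0.28, edgeR adjusted p = 0.0114). Ppargc1a, a coactivator of mitochondrial genes, stood at 30.8, 37.6 and 31.7 CPM in Con and 10.8, 6.41 and 8.29 CPM in DSS, a log2 fold change of -1.97 (SE 0.39, edgeR adjusted p = 0.00608). Every DSS library was below Con in these 3. Acads, the short-chain enzyme that acts on butyryl-CoA, fell with a log2 fold change of -1.20 (SE 0.36, edgeR adjusted p = 0.0305). Past 0.05 by edgeR's adjusted p were Acads without Con 2, Con 3, DSS 1 or DSS 2 (up to 0.110). Other settings that ended calls were the fit of Con and DSS alone (Acads). The lower calls of the butyrate oxidation and ketogenesis list numbered 4 without Con 2, 5 without DSS 1 and 5 with Con and DSS alone.

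Transcripts of the mitochondrial genome fell most often of the lists, with 11 of 13 members lower, 9 of them kept, and a median of -1.89. Their summed level was 73800, 100000 and 40700 CPM in Con and 17800, 10700 and 27700 CPM in DSS. mt-Co1, a subunit of complex IV, stood at 36200, 57000 and 23400 CPM in Con and 8710, 4960 and 14400 CPM in DSS, a log2 fold change of -2.05 (SE 0.44, edgeR adjusted p = 0.00813). mt-Nd1, of complex I, stood at 9330, 10200 and 3910 CPM in Con and 2450, 1630 and 3490 CPM in DSS, a log2 fold change of -1.63 (SE 0.38, edgeR adjusted p = 0.011). Of the nuclear subunits of the same complexes, 19 of 59 were lower and 0 higher, with a median of -0.59, and only Ndufb9 was kept, at 136, 116 and 88.9 CPM in Con and 62.3, 40.8 and 52.8 CPM in DSS with a log2 fold change of -1.13 (SE 0.27, edgeR adjusted p = 0.012). In the citric acid cycle 1 of 18 genes fell (5.56%, against 12.6% of all tested genes). This was Suclg1, with a log2 fold change of -1.0 (SE 0.26, edgeR adjusted p = 0.0169). Mitochondrial transcripts made up 4.46 to 9.53% of the counts in Con and 1.23 to 2.93% in DSS, while the neutrophil genes moved the other way, and their part in this was not tested. The edgeR adjusted p rose over 0.05 for Suclg1 without Con 2 (up to 0.0508). Calls went missing with the fit of Con and DSS alone (mt-Co1, mt-Nd1 and Suclg1). For the mitochondrial genome transcripts list, lower calls numbered 5 with Con and DSS alone. Against 19, the lower calls of the oxidative phosphorylation, nuclear subunits list were 4 without Con 1, 2 without Con 2 or DSS 2, 12 without DSS 1 or DSS 3 and 4 with Con and DSS alone. In the citric acid cycle list the lower calls came to 0 without Con 2, 2 without DSS 3 and 0 with Con and DSS alone. mt-Co1 and Ndufb9 carried 10% or more of the exon sequence in common with other genes, so their counts are uncertain. Reads of mt-Nd1 may be mixed with those of a gene with overlapping exons.

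In glycolysis 8 of 18 members rose and none fell (median 0.59). In the response to low oxygen 8 of 15 rose and none fell (median 0.92). Eno1, the enolase found in most cells, stood at 271, 408 and 333 CPM in Con and 684, 877 and 652 CPM in DSS, a log2 fold change of 1.13 (SE 0.23, edgeR adjusted p = 0.00639). Hk3, the hexokinase of myeloid cells, stood at 1.40, 1.11 and 2.14 CPM in Con and 15.2, 71.5 and 13.9 CPM in DSS, a log2 fold change of 4.43 (SE 0.76, edgeR adjusted p = 0.00381). Slc16a3, which exports lactate, had 8.59, 8.54 and 8.77 CPM in Con and 31.7, 647 and 35.6 CPM in DSS, a log2 fold change of 4.78 (SE 1.08, edgeR adjusted p = 0.011). Here DSS 2 was far above DSS 1 and 3, as it was for the neutrophil genes, whose part in these values was not tested. Hif1a, the oxygen-sensing transcription factor, stood at 131, 103 and 113 CPM in Con and 259, 417 and 376 CPM in DSS, a log2 fold change of 1.60 (SE 0.35, edgeR adjusted p = 0.00851). Egln3, an oxygen-dependent hydroxylase that is its target, stood at 40.9, 24.8 and 19.8 CPM in Con and 76.8, 110 and 69.1 CPM in DSS, a log2 fold change of 1.58 (SE 0.28, edgeR adjusted p = 0.00419). Vegfa, the vascular growth factor, had 65.5, 66.1 and 82.9 CPM in Con and 35.1, 76.5 and 47.9 CPM in DSS and no call (edgeR adjusted p = 0.211), and Slc2a1, the common glucose carrier, had 108, 140 and 107 CPM in Con and 120, 254 and 151 CPM in DSS (edgeR adjusted p = 0.114). Fold changes on the log2 scale shifted to 3.22 (Hk3) and 1.95 (Slc16a3) without DSS 2. Under other settings, calls ended with the fit of Con and DSS alone (Slc16a3). Higher calls of the glycolysis list numbered 4 with Con and DSS alone. Of the hypoxia response list, higher calls amounted to 4 with Con and DSS alone. Eno1 held 10% or more of the exon sequence in common with other genes, so its count is uncertain. Reads of Hk3 and Hif1a may be mixed with those of a gene with overlapping exons.

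Amino acid handling held 14 higher and 1 lower calls among 27 members, with a median of 1.35. The serine pathway gene Psat1 stood at 9.98, 14.1 and 14.1 CPM in Con and 60.7, 53.1 and 53.4 CPM in DSS, a log2 fold change of 2.13 (SE 0.37, edgeR adjusted p = 0.00371). Slc3a2 and Slc7a5 form a carrier of large neutral amino acids. Slc3a2 stood at 55.3, 58.6 and 65.1 CPM in Con and 128, 169 and 115 CPM in DSS, a log2 fold change of 1.20 (SE 0.15, edgeR adjusted p = 0.00133). Slc7a5 stood at 7.60, 13.5 and 18.7 CPM in Con and 47.0, 49.1 and 57.7 CPM in DSS, a log2 fold change of 1.95 (SE 0.36, edgeR adjusted p = 0.00477). All DSS libraries were above all Con libraries in these genes. Slc7a11, the cystine importer, rose with a log2 fold change of 5.29 (SE 0.97, edgeR adjusted p = 0.00519), and Ass1, which makes argininosuccinate, with a log2 fold change of 1.56 (SE 0.30, edgeR adjusted p = 0.00575). Otc, the urea cycle enzyme that the gut shares with the liver, had 11.7, 36.3 and 28.3 CPM in Con and 0.673, 8.27 and 3.28 CPM in DSS and fell with a log2 fold change of -2.64 (SE 0.82, edgeR adjusted p = 0.0385). Arg1 and Arg2, the arginases, rose with log2 fold changes of 5.28 (SE 1.21) and 4.68 (SE 1.28). In the sterol and fatty acid synthesis list 0 of 21 members were called by edgeR, where 2 had an unadjusted p under 0.05, and 0 by DESeq2 or limma-voom. In edgeR, the adjusted p went past 0.05 for Otc without Con 2, Con 3, DSS 1 or DSS 3 (up to 0.103) and Arg2 without Con 1, Con 2, Con 3 or DSS 2 (up to 0.101). With a library fewer, log2 fold changes were 3.37 (Slc7a11), -3.70 (Otc), 2.61 (Arg1) and 1.88 (Arg2) without DSS 2 and 5.30 (Arg2) without Con 2. Among the other fits, no call remained with the fit of Con and DSS alone (Otc, Arg1 and Arg2), limma-voom (Arg1 and Arg2), the position score as covariate (Otc) and no filter on low counts (Otc and Arg2). The higher calls of the amino acid, polyamine and tryptophan metabolism list numbered 9 with Con and DSS alone. For the amino acid, polyamine and tryptophan metabolism list, lower calls numbered 0 without Con 2, Con 3 or DSS 1 and 0 with Con and DSS alone. Ass1 showed 10% or more of the exon sequence in common with other genes, so its count is uncertain. Reads of Arg2 may be mixed with those of a gene with overlapping exons.

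Of the genes that serve protein folding and stress in the endoplasmic reticulum, 10 of 20 rose, 9 of them in kept calls, and none fell (median 0.75). Hspa5, the chaperone BiP, stood at 271, 387 and 449 CPM in Con and 875, 815 and 1030 CPM in DSS, a log2 fold change of 1.30 (SE 0.25, edgeR adjusted p = 0.00544). Creld2, a secreted stress-inducible protein, stood at 26.2, 35.0 and 34.1 CPM in Con and 88.8, 77.4 and 90.5 CPM in DSS, a log2 fold change of 1.43 (SE 0.16, edgeR adjusted p = 0.00117). Calr, the chaperone calreticulin, stood at 337, 460 and 455 CPM in Con and 814, 609 and 966 CPM in DSS, a log2 fold change of 0.93 (SE 0.23, edgeR adjusted p = 0.0149). Of the stress transcription factors, Xbp1 rose with a log2 fold change of 0.63 (SE 0.18, edgeR adjusted p = 0.0281), whereas Atf4, Atf3 and Ddit3 were not called. Plasma cell genes, whose cells are rich in this machinery, moved with the list, with a summed level of 3260, 6610 and 8000 CPM in Con and 15100, 9230 and 10500 CPM in DSS, and their part in it was not tested. An edgeR adjusted p over 0.05 was found for Xbp1 without Con 1, Con 2 or DSS 1 (up to 0.0834). Further calls went with the fit of Con and DSS alone (Calr and Xbp1) and no filter on low counts (Xbp1).

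Among cell cycle genes, the replication genes Mcm2 to Mcm7, Pcna and Rrm2 rose and all 8 were kept, while 1 of the 22 members fell (median 0.52). Rrm2, a subunit of ribonucleotide reductase, stood at 22.2, 20.8 and 19.9 CPM in Con and 82.2, 70.9 and 68.0 CPM in DSS, a log2 fold change of 1.81 (SE 0.28, edgeR adjusted p = 0.00285). Mcm3, of the replicative helicase, stood at 26.2, 26.7 and 28.3 CPM in Con and 88.3, 70.3 and 80.6 CPM in DSS, a log2 fold change of 1.56 (SE 0.26, edgeR adjusted p = 0.00332). Mcm7 rose with a log2 fold change of 0.85 (SE 0.19, edgeR adjusted p = 0.00921). The proliferation marker Mki67, by contrast, had 466, 281 and 230 CPM in Con and 246, 269 and 245 CPM in DSS, a log2 fold change of -0.36 (SE 0.40, edgeR adjusted p = 0.524). Plk1, a mitotic kinase, had 117, 101 and 102 CPM in Con and 72.8, 53.1 and 78.0 CPM in DSS and fell with a log2 fold change of -0.65 (SE 0.20, edgeR adjusted p = 0.0369). Top2a, Cdk1, Aurkb, Birc5 and Ccnb1, which act in mitosis, were not called. Without 1 library, edgeR's adjusted p passed 0.05 for Plk1 without Con 1, Con 2, Con 3, DSS 1 or DSS 2 (up to 0.100). Calls were also lost with the fit of Con and DSS alone (Plk1), library sizes without factors (Plk1) and no filter on low counts (Plk1). Against 1, the lower calls of the cell cycle list were 0 without Con 1, Con 2, Con 3, DSS 1 or DSS 2 and 0 with Con and DSS alone. Mcm7 carried 10% or more of the exon sequence in common with other genes, so its count is uncertain. Reads of Plk1 may be mixed with those of a gene with overlapping exons.

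Of the genes that mark repairing epithelium, 10 of 19 rose and none fell (median 1.40). Ereg, a ligand of the epidermal growth factor receptor that fibroblasts also make, stood at 5.28, 7.77 and 11.6 CPM in Con and 174, 148 and 315 CPM in DSS, a log2 fold change of 4.69 (SE 0.52, edgeR adjusted p = 0.00123). Anxa1, an annexin of many cell types, stood at 220, 232 and 201 CPM in Con and 454, 1120 and 399 CPM in DSS, a log2 fold change of 1.59 (SE 0.39, edgeR adjusted p = 0.0146). Squamous epithelium lines the anal canal, and 7 of its 13 listed genes passed the low-count filter. Of these, 3 were called higher in DSS. Members with few Con counts could pass only through libraries given DSS, so this share was partly set by the filter. The squamous keratin Krt13 stood at 0.103, 0.0555 and 0.214 CPM in Con and 5.53, 14.1 and 11 CPM in DSS, a log2 fold change of 6.28 (SE 1.00, edgeR adjusted p = 0.00306). Krt14 had 1.60, 0.666 and 0.481 CPM in Con and 2.31, 29.3 and 3.22 CPM in DSS, a log2 fold change of 3.65 (SE 0.91, edgeR adjusted p = 0.0159), with DSS 2 far above the rest. Squamous genes summed to 11.6, 6.88 and 5.51 CPM in Con and 21.1, 65.2 and 22.9 CPM in DSS, and a part of tissue from the anal margin in these libraries was not tested. Past 0.05 by edgeR's adjusted p were Krt14 without Con 2 or Con 3 (up to 0.0588). Log2 fold changes became 0.96 (Anxa1) and 1.57 (Krt14) without DSS 2 and 4.32 (Krt14) without Con 1. Krt13 had 3 Con counts without Con 3, a count ratio of 126 (95% exact interval 43.0 to 614). Other settings that ended calls were the fit of Con and DSS alone (Anxa1 and Krt14) and limma-voom (Krt14). In the wound-repair epithelium list the higher calls came to 6 with Con and DSS alone. Krt14 held 10% or more of the exon sequence in common with other genes, so its count is uncertain. Reads of Ereg may be mixed with those of a gene with overlapping exons.

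Fibroblast activation gave the highest share of kept calls in the stroma. Of 21 genes of activated fibroblasts, 18 rose, 16 of them kept, and none fell, with a median log2 fold change of 2.98. Of 20 general fibroblast genes, 9 rose and none fell (median 0.71). Il11, a cytokine made by injured mesenchyme, stood at 0.517, 0.277 and 0.107 CPM in Con and 43.2, 37.9 and 85.0 CPM in DSS, a log2 fold change of 7.48 (SE 0.82, edgeR adjusted p = 0.00117). Osmr (ENSMUSG00000022146, chr15:6813577-6874969, GRCm38), the oncostatin M receptor, stood at 10.3, 9.04 and 12.2 CPM in Con and 49.1, 57.4 and 49.5 CPM in DSS, a log2 fold change of 2.31 (SE 0.17, edgeR adjusted p = 0.000236), one of the smallest adjusted p of all genes. Pdpn, podoplanin, stood at 12.3, 8.32 and 9.36 CPM in Con and 60.6, 51.9 and 54.5 CPM in DSS, a log2 fold change of 2.48 (SE 0.31, edgeR adjusted p = 0.00133). The DSS libraries of each lay above all Con libraries. Among the matrix-degrading enzymes, Mmp3 stood at 2.17, 0.777 and 1.23 CPM in Con and 71.5, 272 and 260 CPM in DSS, a log2 fold change of 7.16 (SE 1.46, edgeR adjusted p = 0.00744). Mmp10 stood at 0.879, 1.55 and 1.34 CPM in Con and 10.5, 284 and 214 CPM in DSS, a log2 fold change of 7.07 (SE 1.50, edgeR adjusted p = 0.00859), and Mmp13 at 2.38, 1.94 and 5.24 CPM in Con and 23.4, 356 and 201 CPM in DSS, a log2 fold change of 5.92 (SE 1.07, edgeR adjusted p = 0.00478). DSS 1 was the lowest DSS library in all 3. Pdgfra, the growth factor receptor of resident fibroblasts, stood at 65.8, 49.9 and 81.9 CPM in Con and 154, 169 and 216 CPM in DSS, a log2 fold change of 1.45 (SE 0.22, edgeR adjusted p = 0.0025), whereas Postn and Fap, also markers of activation, differed by -0.12 (SE 0.35) and -0.67 (SE 0.35) without a call (edgeR adjusted p = 0.82 and 0.175). With 1 library left out, log2 fold changes were 8.13 (Il11) without Con 1 and 6.47 (Mmp10) and 5.13 (Mmp13) without DSS 2. Calls went missing with limma-voom (Mmp10). Reads of Pdgfra may be mixed with those of a gene with overlapping exons.

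Mmp3, Mmp10, Mmp13 and Il11 are shown by the 250 bases before their start in RefSeq on GRCm38.p6, read 5′ to 3′ on the strand of the gene, because they rose together and each holds the letters TGANTCA, the core bound by AP-1 factors such as Fos and Jun, within this stretch. For Il11, which has a second start without a match, the start with a match is shown. Capitals mark the match on the strand shown, which begins 46 bases before the start of Mmp3, 63 before that of Mmp10, 35 before that of Mmp13 and 98 before that of Il11.
Mmp3 (chr9:7445572-7445821, plus strand): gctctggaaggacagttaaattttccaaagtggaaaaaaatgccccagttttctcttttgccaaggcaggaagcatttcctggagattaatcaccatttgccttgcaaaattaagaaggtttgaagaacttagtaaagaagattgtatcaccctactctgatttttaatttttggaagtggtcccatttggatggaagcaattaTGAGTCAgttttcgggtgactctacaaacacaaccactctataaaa
Mmp10 (chr9:7502092-7502341, plus strand): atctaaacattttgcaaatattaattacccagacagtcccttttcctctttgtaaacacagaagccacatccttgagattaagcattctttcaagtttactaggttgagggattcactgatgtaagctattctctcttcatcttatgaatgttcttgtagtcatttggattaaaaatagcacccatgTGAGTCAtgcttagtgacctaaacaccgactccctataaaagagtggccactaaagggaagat
Mmp13 (chr9:7272264-7272513, plus strand): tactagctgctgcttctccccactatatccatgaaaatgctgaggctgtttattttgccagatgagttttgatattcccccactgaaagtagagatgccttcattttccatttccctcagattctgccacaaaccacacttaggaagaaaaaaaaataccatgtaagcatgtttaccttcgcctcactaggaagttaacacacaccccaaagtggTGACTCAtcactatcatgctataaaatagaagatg
Il11 (chr7:4778142-4778391, minus strand): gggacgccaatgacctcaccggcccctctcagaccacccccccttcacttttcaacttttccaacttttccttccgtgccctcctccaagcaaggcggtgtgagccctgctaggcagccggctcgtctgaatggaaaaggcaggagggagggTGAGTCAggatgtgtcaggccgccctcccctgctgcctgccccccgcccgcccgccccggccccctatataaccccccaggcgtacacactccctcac

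Windows of 250 bases before and 50 after a start were matched to 12343 tested genes, and a gene counted as holding a motif if any of its windows did. The AP-1 letters stood in 6 of the 13 activated fibroblast genes with a window, in 7.06% of all matched genes, and in 7.81% of all 32851 windows of this length. They stood in 11.3% of 973 kept genes higher in DSS and in 7.72% of 648 kept genes lower in DSS. For the STAT letters TTCNNNGAA the shares were 8.47% of all matched genes, 11.1% of those kept higher and 7.41% of those kept lower. The NF-kB motif gave 6.47%, 8.43% and 5.86%, and the CDX letters TTTATNG 8.98%, 11.5% and 10.5%. CREB letters TGACGTCA gave 3.31%, 2.57% and 2.93%, and the HNF4 letters CAAAGTCCA gave 0.559%, 0.822% and 0.463%. These matches, searched on both strands, describe letters and not bound sites, and the share of activated fibroblast genes with AP-1 letters was the same as that of coagulation and fibrinolysis genes, 6 of 13. Squamous genes held them in 3 of 5, and neutrophil and basement membrane genes in none of 15 and 17.

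Signals of the crypt niche, most of them sent by fibroblasts, held 12 higher (37.5%) and 3 lower calls (9.38%) among 32 members (median 0.95). The shares over all tested genes were 13.9% and 12.6%. Grem1, an antagonist of bone morphogenetic proteins that favours stem cells, stood at 31.1, 29.7 and 68.8 CPM in Con and 274, 397 and 562 CPM in DSS, a log2 fold change of 3.25 (SE 0.71, edgeR adjusted p = 0.00942). Hgf, hepatocyte growth factor, stood at 2.95, 3.0 and 3.74 CPM in Con and 41.9, 37.5 and 63.1 CPM in DSS, a log2 fold change of 3.88 (SE 0.39, edgeR adjusted p = 0.000833). Nrg1, a ligand of ERBB receptors, stood at 4.71, 4.38 and 7.49 CPM in Con and 39.4, 91.9 and 64.1 CPM in DSS, a log2 fold change of 3.56 (SE 0.42, edgeR adjusted p = 0.00132). Their groups did not overlap. Rspo1 and Rspo3, which strengthen Wnt signals, rose with log2 fold changes of 2.60 (SE 0.65) and 1.45 (SE 0.41), and the non-canonical ligand Wnt5a rose with a log2 fold change of 1.54 (SE 0.31, edgeR adjusted p = 0.00646). Hedgehog signalling runs the other way, from epithelium to stroma. Ihh, the ligand made by colonocytes, stood at 124, 129 and 115 CPM in Con and 35.3, 25.4 and 37.6 CPM in DSS, a log2 fold change of -1.90 (SE 0.22, edgeR adjusted p = 0.00117). Its target genes in the stroma, Gli1 and Hhip, fell as well. Gli1 stood at 11.3, 6.27 and 10.2 CPM in Con and 3.94, 3.61 and 4.33 CPM in DSS, a log2 fold change of -1.22 (SE 0.26, edgeR adjusted p = 0.0085), and Hhip at 46.7, 32.0 and 24.7 CPM in Con and 11.6, 4.61 and 17.7 CPM in DSS, a log2 fold change of -1.61 (SE 0.44, edgeR adjusted p = 0.0224). Ptch1, the receptor and a further target, was not called. Calls by edgeR's adjusted p were lost for Rspo3 without Con 1, Con 2, DSS 1 or DSS 3 (up to 0.0850) and Hhip without Con 1 or DSS 1 (up to 0.0685). Fold changes on the log2 scale shifted to 3.21 (Rspo1) without Con 3. Under other settings, calls ended with the fit of Con and DSS alone (Rspo3, Gli1 and Hhip). Lower calls of the stromal niche signals list numbered 1 with Con and DSS alone. Reads of Hgf, Nrg1, Rspo3, Wnt5a, Gli1 and Hhip may be mixed with those of a gene with overlapping exons.

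**Figure D5:**
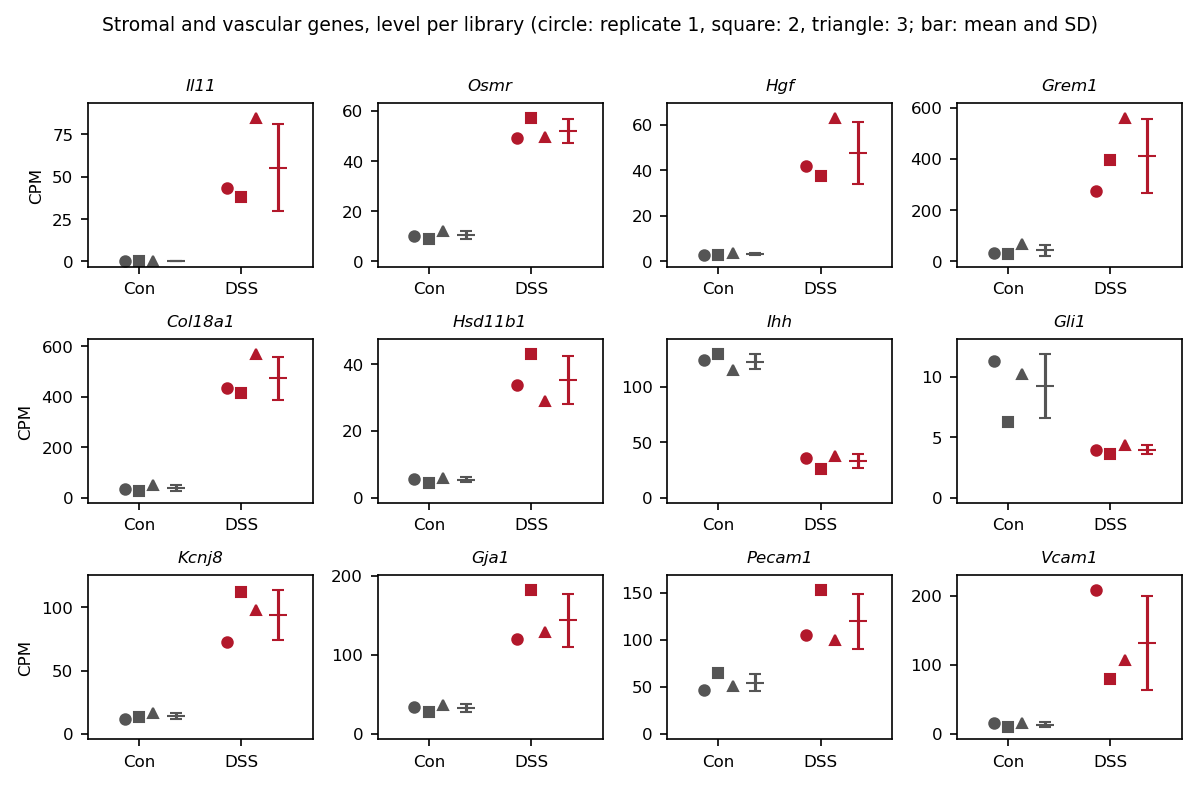
Level in CPM in each library of 12 genes, which are stromal and vascular genes and Ihh, a ligand made by colonocytes. Con is in grey and DSS in red, with a marker shape for each replicate and bars for the mean and SD (n = 3). In all 12 genes the groups did not overlap. Ihh and Gli1 were lower in DSS and the other 10 higher.

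Basement membrane genes held 12 higher calls, all kept, and 1 lower call among 26 members, with a median of 1.38. Col18a1, the source of endostatin, stood at 33.8, 25.9 and 50.1 CPM in Con and 433, 415 and 570 CPM in DSS, a log2 fold change of 3.69 (SE 0.41, edgeR adjusted p = 0.00117). Col4a1, of the collagen that underlies every epithelium and vessel, stood at 119, 148 and 198 CPM in Con and 516, 919 and 1150 CPM in DSS, a log2 fold change of 2.47 (SE 0.38, edgeR adjusted p = 0.00275). Lamc1, the common laminin gamma chain, stood at 43.5, 41.9 and 79.2 CPM in Con and 188, 212 and 276 CPM in DSS, a log2 fold change of 2.04 (SE 0.28, edgeR adjusted p = 0.00221). Lama1, a laminin chain known mainly from embryos, had 0.828, 1.44 and 3.05 CPM in Con and 16.6, 31.4 and 37.5 CPM in DSS, a log2 fold change of 4.00 (SE 0.57, edgeR adjusted p = 0.00229). The groups did not overlap for these genes. The chain that fell was Col4a3, at 1.50, 1.28 and 1.50 CPM in Con and 0.289, 0.250 and 0.581 CPM in DSS with a log2 fold change of -1.92 (SE 0.46, edgeR adjusted p = 0.013), while Col4a6 had 4.65, 4.88 and 10.1 CPM in Con and 10.9, 2.76 and 7.29 CPM in DSS. With a library fewer, log2 fold changes were 4.64 (Lama1) without Con 3. Reads of Col4a1 and Col4a3 may be mixed with those of a gene with overlapping exons.

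In smooth muscle none of 16 genes rose and 2 fell (12.5%, against 12.6% of all tested genes), with a median of -1.0. The summed level was 1740, 1610 and 4860 CPM in Con and 2080, 1030 and 1740 CPM in DSS, highest in Con 3. Pln, phospholamban, which brakes the calcium pump of the sarcoplasmic reticulum, stood at 1.45, 3.83 and 5.19 CPM in Con and 0.337, 0.301 and 0.370 CPM in DSS, a log2 fold change of -3.35 (SE 0.57, edgeR adjusted p = 0.00346). Casq2, the calcium-binding protein of the same store, stood at 14, 8.71 and 11 CPM in Con and 3.75, 1.20 and 1.95 CPM in DSS, a log2 fold change of -2.28 (SE 0.52, edgeR adjusted p = 0.0102). In neither gene did the groups overlap. Myh11, the smooth muscle myosin, had 326, 270 and 969 CPM in Con and 461, 160 and 276 CPM in DSS (edgeR adjusted p = 0.232) and Acta2, which myofibroblasts share, 335, 239 and 703 CPM in Con and 459, 203 and 443 CPM in DSS. Among pacemaker genes of the gut wall, P2ry1, a purine receptor of inhibitory transmission, stood at 25.8, 47.1 and 43.8 CPM in Con and 9.09, 13.6 and 16.7 CPM in DSS, a log2 fold change of -1.56 (SE 0.26, edgeR adjusted p = 0.00342), and Kit, which marks interstitial and mast cells, fell with a log2 fold change of -1.21 (SE 0.34, edgeR adjusted p = 0.0239). Gja1, the gap junction protein connexin 43, rose from 27.1 to 36.3 CPM in Con to 120 to 182 CPM in DSS, a log2 fold change of 2.15 (SE 0.19, edgeR adjusted p = 0.00043). An edgeR adjusted p over 0.05 was found for Kit without Con 2, Con 3 or DSS 1 (up to 0.0746). Further calls went with the fit of Con and DSS alone (Kit). Of the smooth muscle list, lower calls amounted to 4 without Con 1. Reads of Pln and P2ry1 may be mixed with those of a gene with overlapping exons.

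Of 22 genes of enteric neurons, 2 rose (9.09%, against 13.9% of all tested genes) and none fell (median 1.09). Their summed level was 114, 88.7 and 193 CPM in Con and 205, 362 and 267 CPM in DSS, with all DSS libraries above all Con libraries and Con 3 close to DSS 1. Ret, the receptor of the neural crest lineage, had 4.50, 4.33 and 12.5 CPM in Con and 14.2, 20.6 and 15.2 CPM in DSS (edgeR adjusted p = 0.0541). Tubb3, neuronal tubulin, rose with a log2 fold change of 1.93 (SE 0.56, edgeR adjusted p = 0.0269). In enteric glia 2 of 13 rose (15.4%, against 13.9% of all tested genes). Gpm6b, a membrane glycoprotein of glia and other cells, stood at 7.40, 7.65 and 12.2 CPM in Con and 42.8, 54.1 and 51.4 CPM in DSS, a log2 fold change of 2.44 (SE 0.30, edgeR adjusted p = 0.00133). Gfap, the filament protein of reactive glia, stood at 0.879, 0.943 and 2.78 CPM in Con and 16.7, 13.2 and 12.9 CPM in DSS, a log2 fold change of 3.21 (SE 0.88, edgeR adjusted p = 0.0231). Without 1 library, edgeR's adjusted p passed 0.05 for Tubb3 without Con 1, Con 2, DSS 2 or DSS 3 (up to 0.0895) and Gfap without Con 1, Con 2 or DSS 1 (up to 0.0789). Omitting a single library gave log2 fold changes of 3.95 (Gfap) without Con 3. Calls were also lost with the fit of Con and DSS alone (Tubb3) and no filter on low counts (Gfap). The higher calls of the enteric neurons list numbered 1 without Con 1 or DSS 1, 0 without Con 2, DSS 2 or DSS 3, 5 without Con 3 and 0 with Con and DSS alone. For the enteric glia list, higher calls numbered 1 without Con 1, Con 2 or DSS 1.

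Among vessel genes, those of leukocyte capture had the larger median. Of 16 endothelial genes, 7 rose and 1 fell (median 0.64), and of 12 activation genes 8 rose, all kept (median 2.96). Pecam1, found on all endothelium, stood at 46.9, 64.6 and 51.0 CPM in Con and 105, 153 and 100 CPM in DSS, a log2 fold change of 1.14 (SE 0.18, edgeR adjusted p = 0.00282). Vcam1, which holds leukocytes to the vessel wall, stood at 15.2, 9.48 and 15.2 CPM in Con and 209, 79.6 and 107 CPM in DSS, a log2 fold change of 3.31 (SE 0.33, edgeR adjusted p = 0.000833). Selp, P-selectin, on which leukocytes roll, stood at 1.29, 0.998 and 0.963 CPM in Con and 25.1, 75.2 and 55.2 CPM in DSS, a log2 fold change of 5.57 (SE 0.69, edgeR adjusted p = 0.00136). The 3 DSS libraries were above Con in each. Sele, E-selectin, had 2 counts in the 3 Con libraries together and 367 in the 3 of DSS, which gave a ratio of 172 (95% exact binomial interval 47.4 to 1430 for counting error alone). Kcnj8, a potassium channel of pericytes, stood at 11.6, 13.4 and 16.4 CPM in Con and 72.5, 112 and 97.6 CPM in DSS, a log2 fold change of 2.77 (SE 0.30, edgeR adjusted p = 0.00117), whereas Rgs5, another pericyte gene, had 122, 193 and 345 CPM in Con and 130, 174 and 198 CPM in DSS. Of 8 lymphatic genes 5 rose, among them Lyve1, which macrophages also carry, with a log2 fold change of 1.41 (SE 0.38, edgeR adjusted p = 0.0214). Past 0.05 by edgeR's adjusted p were Lyve1 without Con 2 or DSS 1 (up to 0.0867). Other settings that ended calls were the fit of Con and DSS alone (Lyve1). Against 1, the lower calls of the blood endothelium list were 0 without Con 2, Con 3, DSS 1, DSS 2 or DSS 3 and 0 with Con and DSS alone. In the lymphatic endothelium list the higher calls came to 3 without Con 1, 2 without Con 2 or DSS 1 and 1 with Con and DSS alone. Reads of Vcam1 and Selp may be mixed with those of a gene with overlapping exons.

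Genes of coagulation and fibrinolysis held 12 higher and 0 lower calls among 18 members (median 1.92). F13a1, the subunit of factor XIII that crosslinks fibrin and is made by macrophages, stood at 16.5, 6.93 and 14.5 CPM in Con and 126, 99.9 and 76.5 CPM in DSS, a log2 fold change of 2.99 (SE 0.38, edgeR adjusted p = 0.00133). Plat, the tissue plasminogen activator, stood at 9.88, 5.82 and 11.1 CPM in Con and 48.9, 116 and 33.3 CPM in DSS, a log2 fold change of 2.89 (SE 0.42, edgeR adjusted p = 0.00236). Plau, the urokinase activator, stood at 29.8, 26.7 and 22.2 CPM in Con and 44.4, 105 and 77.0 CPM in DSS, a log2 fold change of 1.52 (SE 0.33, edgeR adjusted p = 0.00868). Their groups were apart. F10, coagulation factor X, rose with a log2 fold change of 8.55 (SE 1.54, edgeR adjusted p = 0.00478). Serpinb2, an inhibitor of both activators, had no count in Con and 375 over the DSS group, which was at least 117-fold higher when Con was set to a group floor of 3 counts, and at least 34.4-fold without DSS 2. Genes with few Con counts could pass the low-count filter only through libraries given DSS. Mesothelium, the lining of the outer gut wall, gave 3 higher calls among 5 tested of 8 listed genes. Wt1, its transcription factor, stood at 0.207, 0.0555 and 0.0535 CPM in Con and 1.20, 0.902 and 1.69 CPM in DSS, a log2 fold change of 3.49 (SE 0.68, edgeR adjusted p = 0.00574). Upk3b had 0, 0 and 0.481 CPM in Con and 3.27, 3.91 and 1.06 CPM in DSS. Adipocyte genes gave 1 lower call, Pck1, which the epithelium also expresses, at 166, 150 and 161 CPM in Con and 18.2, 45.8 and 49.7 CPM in DSS with a log2 fold change of -2.07 (SE 0.40, edgeR adjusted p = 0.00565). With 1 library left out, log2 fold changes were 2.19 (Plat) and 5.50 (F10) without DSS 2. F10 had 2 Con counts without Con 3, a count ratio of 1048 (95% exact interval 290 to 8660). Wt1 had 2 Con counts without Con 1, a count ratio of 23.1 (95% exact interval 6.17 to 194). Upk3b had 0 Con counts without Con 3, at least 34.6-fold higher in DSS against the floor of 3 counts. Calls went missing with the fit of Con and DSS alone (Serpinb2 and Upk3b) and limma-voom (F10). Serpinb2 carried 10% or more of the exon sequence in common with other genes, so its count is uncertain. Reads of F13a1 may be mixed with those of a gene with overlapping exons.

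Of 18 neutrophil genes 16 were tested, all of which rose, and 15 were kept. Members with few Con counts could pass the low-count filter only through libraries given DSS, so this share was partly set by the filter. Limma-voom called 7 of them, and DESeq2 called 6 and gave no adjusted p for the other 10. S100a9, a subunit of calprotectin, had 2 counts over Con and 161255 over DSS. Of the DSS counts 149905 came from DSS 2, against 5193 and 6157 from DSS 1 and 3. The levels were 7510 CPM in DSS 2 and 250 and 325 CPM in DSS 1 and 3. The count ratio of S100a9 was 75740 (95% exact binomial interval 21000 to 625000), and 8011 without DSS 2. Csf3r, the receptor of granulocyte colony-stimulating factor, stood at 1.45, 0.721 and 1.87 CPM in Con and 34.1, 660 and 24.6 CPM in DSS, a log2 fold change of 7.46 (SE 1.35, edgeR adjusted p = 0.0048). Of 22 monocyte and macrophage genes 17 rose and 11 were kept. Cx3cr1, a receptor of resident gut macrophages, had 12.2, 8.87 and 20.5 CPM in Con and 17.4, 12.3 and 13.4 CPM in DSS and no call (edgeR adjusted p = 0.934). Cd163, a scavenger receptor, was highest in DSS 1, with 7.14, 1.33 and 6.84 CPM in Con and 125, 15.3 and 62.4 CPM in DSS and a log2 fold change of 3.72 (SE 0.74, edgeR adjusted p = 0.00675). Lgmn, a lysosomal protease, stood at 65.2, 51.9 and 83.1 CPM in Con and 403, 274 and 280 CPM in DSS, a log2 fold change of 2.26 (SE 0.27, edgeR adjusted p = 0.00133), among 8 of 21 lysosomal genes that rose. Fold changes on the log2 scale shifted to 4.43 (Csf3r) without DSS 2 and 2.91 (Cd163) without DSS 1. Higher calls of the monocytes and macrophages list numbered 11 without Con 2 and 10 with Con and DSS alone. Of the lysosome and phagocyte enzymes list, higher calls amounted to 5 without Con 2 or DSS 1. Csf3r held 10% or more of the exon sequence in common with other genes, so its count is uncertain.

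T cell genes held 12 higher calls of 17, 4 kept. Ctla4, a checkpoint receptor, stood at 0.569, 1.11 and 1.12 CPM in Con and 9.96, 21.4 and 12.4 CPM in DSS, a log2 fold change of 3.96 (SE 0.61, edgeR adjusted p = 0.00275). Foxp3, the factor of regulatory T cells, stood at 0.569, 0.555 and 0.695 CPM in Con and 2.07, 6.56 and 4.81 CPM in DSS, a log2 fold change of 2.87 (SE 0.50, edgeR adjusted p = 0.00375). Cd3e, on all T cells, rose with a log2 fold change of 2.35 (SE 0.66, edgeR adjusted p = 0.0248). B cell genes depended on Con 1, whose summed level was 144 CPM against 19.4 and 26.4 in Con 2 and 3 and 103 to 462 in DSS. With all libraries 4 of 12 rose and none was kept, whereas without Con 1 all 12 were called. Among plasma cell genes 8 of 13 rose. Ighg2b, an immunoglobulin G heavy chain, had 64.0, 40.8 and 38.0 CPM in Con and 566, 122 and 136 CPM in DSS, a log2 fold change of 2.53 (SE 0.56, edgeR adjusted p = 0.0102), against 1910, 4150 and 5200 CPM in Con and 10500, 6500 and 7440 CPM in DSS for Igha, that of immunoglobulin A (edgeR adjusted p = 0.0559). Hdc, the enzyme that makes histamine in mast cells and neutrophils, rose with a log2 fold change of 8.70 (SE 1.70, edgeR adjusted p = 0.00641). In edgeR, the adjusted p went past 0.05 for Cd3e without Con 1, Con 2, DSS 1 or DSS 2 (up to 0.0829). With a library fewer, log2 fold changes were 1.43 (Ighg2b) without DSS 1 and 4.64 (Hdc) without DSS 2. Among the other fits, no call remained with the fit of Con and DSS alone (Cd3e and Ighg2b) and limma-voom (Cd3e and Hdc). The higher calls of the T cell list numbered 6 without Con 1, 4 without Con 2, 7 without DSS 1, 5 without DSS 2 and 7 with Con and DSS alone. For the B cell list, higher calls numbered 12 without Con 1, 0 without Con 2, Con 3, DSS 1 or DSS 2 and 0 with Con and DSS alone. Against 8, the higher calls of the plasma cells list were 5 without Con 1, 4 without Con 2 or DSS 1 and 4 with Con and DSS alone. Foxp3 showed 10% or more of the exon sequence in common with other genes, so its count is uncertain. Reads of Cd3e may be mixed with those of a gene with overlapping exons.

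Some large differences lost their call without 1 DSS library. Without DSS 2 the calls of Nos2, Tnf and Arg2 were lost. Nos2, the inducible nitric oxide synthase, had 0.621, 1.05 and 2.41 CPM in Con and 30.9, 584 and 16.2 CPM in DSS, a log2 fold change of 7.27 (SE 2.05, edgeR adjusted p = 0.0263). Tnf had 1.34, 2.27 and 1.34 CPM in Con and 6.54, 249 and 5.07 CPM in DSS, a log2 fold change of 5.71 (SE 1.51, edgeR adjusted p = 0.0208). In both, all DSS libraries stood above Con and DSS 2 far above the rest. Without DSS 3 the calls of the pancreatic enzymes Cpb1, Ctrl and Pnliprp2 were lost. Cpb1 had 0.776, 0.222 and 0.374 CPM in Con and 0.722, 0.301 and 1580 CPM in DSS, a log2 fold change of 10.14 (SE 2.85, edgeR adjusted p = 0.026). Ctrl had 1.60, 1.61 and 0.535 CPM in Con and 1.11, 0.902 and 550 CPM in DSS, a log2 fold change of 7.20 (SE 2.13, edgeR adjusted p = 0.0317). DSS 1 and 2 lay within the range of Con in both genes. Of the 10 pancreatic genes tested, 8 were called with all libraries and none was kept. For these genes limma-voom made 0 calls, and DESeq2 gave no adjusted p for any of them. Without DSS 1 the antibody segments Ighv2-9-1 and Igkv10-94 and Mmp7, a matrilysin of secretory epithelium, were lost. Mmp7 had 0.103, 0.666 and 1.55 CPM in Con and 47.0, 2.96 and 4.07 CPM in DSS, a log2 fold change of 4.53 (SE 1.13, edgeR adjusted p = 0.0165). C1qtnf3 was lower in every DSS library, at 19.9, 28.2 and 32.1 CPM in Con and 1.15, 0.301 and 1.21 CPM in DSS, and lost its call without any one of the 3 DSS libraries (log2 fold change -4.90 (SE 1.36)). An edgeR adjusted p over 0.05 was found for Nos2 without Con 1, Con 2, Con 3 or DSS 2 (up to 0.101), Tnf without Con 1, Con 2, Con 3 or DSS 2 (up to 0.0959), Pnliprp2 without Con 1, Con 2, Con 3 or DSS 3 (up to 0.213), Cpb1 without Con 1, Con 2, Con 3 or DSS 3 (up to 0.927), Ctrl without Con 1, Con 2, Con 3 or DSS 3 (up to 0.768), Ighv2-9-1 without Con 1, Con 2 or DSS 1 (up to 0.135), Igkv10-94 without Con 1, Con 2, Con 3 or DSS 1 (up to 0.277), Mmp7 without Con 2 or DSS 1 (up to 0.0588) and C1qtnf3 without Con 2, DSS 1, DSS 2 or DSS 3 (up to 0.0787). On the log2 scale the fold changes moved to 7.96 (Nos2), 6.28 (Ighv2-9-1) and 5.53 (Mmp7) without Con 3, 4.10 (Nos2) and 1.80 (Tnf) without DSS 2, 1.46 (Pnliprp2), 0.14 (Cpb1) and -0.32 (Ctrl) without DSS 3, 10.75 (Cpb1) without Con 1 and 1.80 (Ighv2-9-1), 1.44 (Igkv10-94) and 2.18 (Mmp7) without DSS 1. Further calls went with the fit of Con and DSS alone (Tnf, Pnliprp2, Cpb1, Ctrl, Ighv2-9-1, Igkv10-94 and Mmp7), limma-voom (Nos2, Tnf, Pnliprp2, Cpb1, Ctrl, Ighv2-9-1, Igkv10-94 and Mmp7), the position score as covariate (Ighv2-9-1, Igkv10-94 and Mmp7) and no filter on low counts (Nos2, Tnf, Pnliprp2, Cpb1, Ctrl, Ighv2-9-1, Igkv10-94, Mmp7 and C1qtnf3). In the pancreatic acinar cells list the higher calls came to 1 without Con 1 or Con 3, 0 without Con 2, 3 without DSS 3 and 0 with Con and DSS alone. Ighv2-9-1 and Igkv10-94 had 10% or more of the exon sequence in common with other genes, so their counts are uncertain. Reads of Mmp7 may be mixed with those of a gene with overlapping exons.

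Beside Osmr, Gja1, Vcam1 and Hgf, the genes with the smallest p, chosen after their values were seen, were of several kinds. Hsd11b1 (ENSMUSG00000016194, chr1:193221634-193264075, GRCm38), which regenerates active glucocorticoid, stood at 5.48, 4.49 and 5.99 CPM in Con and 33.9, 43.2 and 28.9 CPM in DSS, a log2 fold change of 2.73 (SE 0.20, edgeR adjusted p = 0.000236). C3, the central complement component, stood at 38.5, 15 and 27.6 CPM in Con and 827, 641 and 842 CPM in DSS, a log2 fold change of 4.83 (SE 0.42, edgeR adjusted p = 0.00043). Adamts4, a protease that cuts aggrecan and versican, stood at 0.724, 0.832 and 1.55 CPM in Con and 122, 48.7 and 80.8 CPM in DSS, a log2 fold change of 6.33 (SE 0.54, edgeR adjusted p = 0.00043). Their DSS libraries did not overlap Con. Stat3, the transcription factor that relays signals of the receptors for interleukin 6, interleukin 11 and oncostatin M, stood at 98.3, 105 and 118 CPM in Con and 277, 353 and 279 CPM in DSS, a log2 fold change of 1.50 (SE 0.16, edgeR adjusted p = 0.000868). Eppk1, epiplakin, an epithelial linker of keratin filaments, stood at 124, 65.1 and 71.4 CPM in Con and 15.5, 12.5 and 15.9 CPM in DSS, a log2 fold change of -2.57 (SE 0.26, edgeR adjusted p = 0.000833). Stra6l, a retinol-binding protein receptor, stood at 43.2, 31.8 and 30.9 CPM in Con and 5.68, 5.86 and 7.29 CPM in DSS, a log2 fold change of -2.49 (SE 0.24, edgeR adjusted p = 0.000833). Zfp467, a zinc finger protein, stood at 74.8, 52.6 and 52.1 CPM in Con and 14.3, 12.2 and 15.5 CPM in DSS, a log2 fold change of -2.09 (SE 0.21, edgeR adjusted p = 0.000833). Higher calls of the pancreatic acinar cells list numbered 1 without Con 1 or Con 3, 0 without Con 2, 3 without DSS 3 and 0 with Con and DSS alone. Reads of Adamts4, Stat3 and Eppk1 may be mixed with those of a gene with overlapping exons.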

How the data were processed

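Colon RNA of mice was sequenced in 4 groups of 3. The deposited files give, per the labels and from their values, raw read counts per Ensembl gene for all 12 libraries. The submitters' processing notes name FastQC, HISAT2, Cuffdiff and GRCm38, and tool versions, the counting tool, its annotation and its strand setting were not given in the sources used here. The authors' counts were used as deposited. Of the 54532 genes, 37 had no name (0.00364% of counts) and were not removed.

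The 17658 genes passing edgeR's filter for low counts (99.8% of counts) were tested in R 4.3.3 with the quasi-likelihood test of edgeR 4.0.16, TMM factors and 1 model over all groups (common biological coefficient of variation 0.352), and p-values were adjusted by Benjamini-Hochberg across the tested genes, with calls under 0.05. The SE of a log2 fold change was calculated back from the edgeR test, as its absolute value divided by the square root of the F statistic. Fold changes of genes with 3 counts or fewer in Con were replaced by count ratios with 95% exact intervals, or by bounds against a floor of 3 counts, which cover counting error only. Replicates differed beyond sampling noise (chi-square per degree of freedom 49.7 to 235). The p-values set the difference of DSS and Con against the spread between mice of a group. This spread was estimated over all groups, those given ursolic acid included. DESeq2 1.42.0, limma-voom (limma 3.58.1), other scalings and filters, a position covariate, a replicate block and the omission of each library were alternatives. The scripts were tested on simulated data. Tables were made with Python 3.11.15, pandas 2.3.3, numpy 2.4.6 and scipy 1.17.1, gene positions came from GENCODE M21, and start windows from RefSeq.

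The comparison and its 57 gene lists (25 of cell types, 1042 genes, of which 1 was not matched) were chosen with earlier results of these data known. Named genes were up to 2 anchors and the smallest p of each list, the 8 largest changes each way among kept, protein-coding genes whose groups were apart and whose log2 CPM averaged 1 or more, and the 4 largest lost without each DSS library. These were 172 of 303 genes with values, and the others were chosen after their values were seen. No set test was run. Results of some genes are not reported here.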

Additional observations from a re-analysis of the deposited data

How the results depend on the processing

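Of the 16 alternatives, the 15 that refitted the data called between 2002 and 5712 genes, against 4688. With the Con and DSS libraries alone the number fell to 2002 (1272 higher, 730 lower), where 4 degrees of freedom remained for the spread against 8 with all groups. Leaving out 1 library at a time gave 2966 to 4295 calls, the lowest without Con 2 (2966) and DSS 1 (3083). Calls held without each library were also called in 1689 (Con and DSS alone) to 2275 cases under the other settings. Replicate numbers did not pair the libraries: same-number deviations of Con and DSS correlated at 0.187, -0.102 and 0.174, and with the replicate block 4373 genes were called. limma-voom called 4607, DESeq2 5712, library sizes without factors 4240 (2487 higher, 1753 lower), no filter on low counts 3690, at least 10 counts in each library 3964 and the position score as a covariate 5382. The log2 fold change of these genes changed sign when 1 library was left out, with its range in brackets: Acta2 (-0.50 to 0.35), Adipoq (-0.46 to 2.60), Cdh17 (-0.56 to 0.02), Cldn2 (-0.46 to 0.45), Col4a6 (-0.39 to 0.54), Ctrl (-0.32 to 7.77), Cx3cr1 (-0.19 to 0.43), Cyp1a1 (-0.02 to 2.11), Cyp26b1 (-0.02 to 0.39), Dclk1 (-0.11 to 0.48), Fasn (-0.48 to 0.20), Gcg (-0.79 to 0.21), Hoxb13 (-1.49 to 0.66), Hoxd10 (-2.93 to 4.05), Hoxd13 (-2.29 to 6.59), Ido1 (-0.71 to 1.46), Per2 (-0.14 to 0.41), Postn (-0.35 to 0.11), Rgs5 (-0.68 to 0.08), S100b (-0.67 to 0.03), Sdha (-0.43 to 0.00) and Sqle (-0.71 to 0.00). Only Ctrl of these had been called with all libraries. Of these, 5 also changed sign in another fit: Cldn2 (limma-voom -0.12, replicate block -0.03), Col4a6 (limma-voom -0.02), Gcg (position score 0.13), Hoxd10 (limma-voom 0.72) and Hoxd13 (limma-voom 2.62, replicate block 1.24, position score 1.38). The cause was not tested. Over 303 genes with values and all alternatives, 4027 results kept direction and call, 344 lost the call, 53 gained it and 38 changed sign. With 3 mice a group, differences within the spread between mice were not detectable, and a missed threshold does not show equal levels.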

Other observations

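Of 25 genes of metal handling, 8 were higher in DSS (32.0%) and 3 lower (12.0%). Over all tested genes these shares were 13.9% and 12.6%. Mt1, a metallothionein that buffers zinc and copper, stood at 185, 121 and 86.0 CPM in Con and 640, 422 and 351 CPM in DSS, a log2 fold change of 1.85 (SE 0.39, edgeR adjusted p = 0.00796). Slc39a14, a zinc and iron importer, stood at 54.3, 48.8 and 50.6 CPM in Con and 74.3, 143 and 106 CPM in DSS, a log2 fold change of 1.08 (SE 0.21, edgeR adjusted p = 0.00545), whereas Slc39a5, another zinc carrier, stood at 66.9, 78.8 and 61.0 CPM in Con and 11.6, 13.3 and 34.8 CPM in DSS, a log2 fold change of -1.79 (SE 0.44, edgeR adjusted p = 0.0146). Cp, the ferroxidase ceruloplasmin, rose with a log2 fold change of 3.60 (SE 0.43, edgeR adjusted p = 0.00133). Of 16 genes of retinoid metabolism 4 rose and 1 fell. Rdh10, which starts the making of retinoic acid, stood at 30.7, 28.1 and 31.1 CPM in Con and 72.5, 110 and 93.2 CPM in DSS, a log2 fold change of 1.62 (SE 0.17, edgeR adjusted p = 0.000868). Aldh1a3, which finishes it, stood at 6.31, 5.21 and 5.51 CPM in Con and 73.8, 166 and 48.7 CPM in DSS, a log2 fold change of 4.08 (SE 0.49, edgeR adjusted p = 0.00133). Log2 fold changes became -2.47 (Slc39a5) without DSS 3 and 3.42 (Aldh1a3) without DSS 2. Of the iron, zinc and copper handling list, lower calls amounted to 1 without Con 2, Con 3 or DSS 1 and 1 with Con and DSS alone. The lower calls of the retinoid metabolism list numbered 3 without Con 1, 0 without Con 2 or Con 3 and 0 with Con and DSS alone. Reads of Cp may be mixed with those of a gene with overlapping exons.

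Ptgs2 and Ptges, which make prostaglandins, rose while Hpgd, which breaks them down, fell. Ptgs2, cyclooxygenase 2, stood at 5.02, 6.16 and 9.84 CPM in Con and 58.1, 195 and 137 CPM in DSS, a log2 fold change of 4.21 (SE 0.63, edgeR adjusted p = 0.00279), and Ptges, the synthase of prostaglandin E, at 13.7, 7.04 and 10.9 CPM in Con and 42.6, 116 and 43.0 CPM in DSS, a log2 fold change of 2.67 (SE 0.41, edgeR adjusted p = 0.00275). Hpgd, the degrading dehydrogenase, stood at 168, 325 and 243 CPM in Con and 62.0, 60.9 and 75.5 CPM in DSS, a log2 fold change of -1.89 (SE 0.40, edgeR adjusted p = 0.00813). Over the whole list 5 of 21 members rose (23.8%, against 13.9% of all tested genes) and 3 fell (14.3%, against 12.6%). The circadian clock list held 3 higher (17.6%, against 13.9%) and 5 lower calls (29.4%, against 12.6%) among 17 members. Nr1d1, a repressor of the clock, stood at 82.8, 45.9 and 76.4 CPM in Con and 22.6, 15.9 and 20.1 CPM in DSS, a log2 fold change of -1.81 (SE 0.33, edgeR adjusted p = 0.00429). Nfil3 stood at 1.71, 6.49 and 4.49 CPM in Con and 39.4, 80.8 and 29.4 CPM in DSS, a log2 fold change of 3.56 (SE 0.50, edgeR adjusted p = 0.00229), and Per1 at 17.3, 15.6 and 28.2 CPM in Con and 56.4, 102 and 58.8 CPM in DSS, a log2 fold change of 1.83 (SE 0.34, edgeR adjusted p = 0.00489), while the core factor Arntl had 18.7, 54.6 and 26.7 CPM in Con and 24.4, 17.1 and 20.3 CPM in DSS (edgeR adjusted p = 0.173). The hour at which each colon was taken is not given in the sources used here, and its part in these values was not tested. Of 13 immediate early genes 8 rose, among them Egr2 at 0.155, 0.277 and 0.481 CPM in Con and 3.90, 5.56 and 5.55 CPM in DSS with a log2 fold change of 4.01 (SE 0.41, edgeR adjusted p = 0.000833), whereas Fos had 73.6, 126 and 99.7 CPM in Con and 111, 136 and 98.8 CPM in DSS. With 1 library left out, log2 fold changes were 2.01 (Ptges) without DSS 2. For the eicosanoid synthesis and receptors list, higher calls numbered 3 without Con 2 and 3 with Con and DSS alone. Against 3, the lower calls of the eicosanoid synthesis and receptors list were 1 without Con 2, Con 3 or DSS 2 and 1 with Con and DSS alone. In the circadian clock list the lower calls came to 2 without Con 1 or DSS 1, 3 without Con 3 or DSS 3, 1 without DSS 2 and 2 with Con and DSS alone. Higher calls of the immediate early genes list numbered 4 with Con and DSS alone. Reads of Nr1d1 may be mixed with those of a gene with overlapping exons.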
